A study of Mus musculus and Homo sapiens with 43 samples.

Results

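The genes described here carry the names of subunits of the mitochondrial respiratory chain and ATP synthase, in mouse embryonic stem cells and their derivatives. They were taken by name: mitochondrial genes beginning mt-Nd, mt-Co, mt-Atp or mt-Cytb, and nuclear genes beginning Ndufa, Ndufb, Ndufc, Ndufs or Ndufv with a number, Sdha to Sdhd, Uqcr, Cox4 to Cox8, or Atp5, without names ending in -ps. The first table of TPM (a length-corrected unit that gives each gene its share of the transcripts of a library) held 102 of them among 35245 genes, 13 mitochondrial and 89 nuclear. The second table held 96 among 32231, 13 mitochondrial and 83 nuclear. Together they gave 104 names, of which 94 stood in both tables under the same name, 8 in the first alone and 2 in the second alone. A further 13 names ending in -ps in the first table and 6 in the second were left out. By name the 89 nuclear genes of the first table fell into complex I with 41, complex II with 4, complex III with 8, complex IV with 19 and complex V with 17.

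The study asked how PRC1, a Polycomb repressive complex that marks histone H2A, shapes the genome as stem cells become neural cells. E14 embryonic stem cell (ESC) lines, wild type (WT) or edited by CRISPR/Cas9, were grown with LIF, 1 µM PD0325901 (a MEK inhibitor) and 3 µM CHIR99021 (a GSK3 inhibitor), which hold cells in the naive state. They were then aggregated into embryoid bodies (EB) without these agents and sampled at day 3 and day 8, or treated with 5 µM retinoic acid to give cells labelled neural progenitors (NPC). The first table held 16 libraries of total RNA, WT and Pcgf2 KO (Pcgf2 is a PRC1 subunit) at each of the 4 stages. The knock-out columns of the second held 8, Phc1 KO and Phc1-SAM KO (Phc1 is another PRC1 subunit, and SAM is its polymerising domain) as ESC and NPC. Every group had 2 libraries. Separate cultures or separate edited lines are not named in the labels for the 2 libraries of a group. A p-value here reflects no more than how far libraries of the same group differ, a spread estimated over all groups of a table.

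Electrons from NADH enter the chain at complex I and those from succinate at complex II, pass through complex III to complex IV, which reduces oxygen, and the proton gradient so built drives ATP synthesis at complex V. The mitochondrial genome encodes core subunits of complexes I, III, IV and V and is transcribed as long precursors that are cut into single RNAs, while complex II and all other subunits come from nuclear genes, so both genomes must be expressed together. Naive stem cells use both respiration and glycolysis and are known to lean on glycolysis more as they leave the naive state. Several nuclear subunits exist in alternative forms, such as Cox7a1 in heart and skeletal muscle beside the widespread Cox7a2, and Cox6b2 in testis beside Cox6b1.

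Some libraries did not match what their labels name, and the results below have to be read beside that. Pcgf2 itself was not lower in any library labelled Pcgf2 KO: its level was 155 and 150 TPM in WT ESC and 180 and 284 TPM in Pcgf2 KO ESC, and the KO libraries were also the higher at the other stages. Phc1 stood at 150 and 152 TPM in Phc1 KO ESC and at 266 and 247 TPM in Phc1-SAM KO ESC, and at 103 to 111 TPM in all 4 NPC libraries of both lines. A TPM per gene does not show which exon was edited, so Pcgf2 KO and Phc1 KO mean libraries labelled so. Eif2s3y, a Y-linked gene, was at 0.42 to 2.78 TPM in the WT ESC, EB day 3 and NPC libraries but at 50.4 and 64.7 TPM in WT EB day 8 and at 45.7 to 76.1 TPM in all Pcgf2 KO libraries, so a difference between cell lines cannot be told apart from genotype or stage there. In the second table it was at 14.0 and 15.8 TPM in Phc1 KO ESC, at 2.04 and 5.15 TPM in Phc1-SAM KO ESC and at 30.7 to 36.6 TPM in the 4 NPC libraries, so the same holds for the comparison of those ESC lines and for their changes from ESC to NPC. Of 4 neural progenitor markers, all 4 reached 1 TPM in both WT NPC libraries, with a sum of 248 to 303 TPM, while 2 did so in Pcgf2 KO NPC, with a sum of 18.5 to 19.9 TPM. Their sum was 21.9 to 22.0 TPM in Phc1 KO NPC and 19.25 to 19.4 TPM in Phc1-SAM KO NPC. The 6 pluripotency markers summed to 12.2 to 13.9 TPM in WT NPC, 951 to 1001 TPM in Pcgf2 KO NPC, 1020 to 1030 TPM in Phc1 KO NPC and 847 to 858 TPM in Phc1-SAM KO NPC. The NPC label therefore holds by these markers for the WT libraries only. In bulk RNA, fewer cells of a type and less RNA per cell cannot be told apart.

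The respiratory chain genes were among the most abundant transcripts of these cells. The mean of a mitochondrial gene over the 16 libraries of the first table ranged from 1386 to 18820 TPM, with a median of 5595 TPM. The nuclear genes had a median of 161 TPM and a highest mean of 1334 TPM, for Atp5b, the catalytic beta subunit of ATP synthase. Of the 89 nuclear genes 68 had a mean of 100 TPM or more and 6 a mean below 1 TPM. Within each complex the most and least abundant genes were Ndufa4 (625 TPM) and Ndufa11b (0.0655 TPM) for complex I, Sdhc (239 TPM) and Sdhb (104 TPM) for complex II, Uqcr10 (412 TPM) and Uqcrfs1 (96.0 TPM) for complex III, Cox4i1 (817 TPM) and Cox8b (0.0542 TPM) for complex IV, and Atp5b and Atp5g2 (51.7 TPM) for complex V. Ndufa4 is named for complex I but is now placed in complex IV, and Cox7a2l is an assembly factor for supercomplexes. RefSeq lists Cox6c2 and Ndufs6b as pseudogenes, Ndufa11b as a transcribed pseudogene and Atp5s under the name Dmac2l. The grouping here is by name, and these genes were kept in the set. Differences were tested with limma on log2(TPM + 1) for genes that reached 1 TPM in 2 libraries, and a gene is called higher or lower where its Benjamini-Hochberg adjusted p over all genes is under 0.05. All 13 mitochondrial genes and 86 of the 89 nuclear genes were tested in the first table, among 17938 genes. In the second, 13 and 81 of 83 were tested, among 15775.

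The 13 mitochondrial genes together made up 9.02% ± 0.396 of the TPM total in WT ESC (SD, n = 2, here and below), 7.59% ± 0.975 in WT EB day 3, 8.63% ± 1.35 in WT EB day 8 and 7.84% ± 0.647 in WT NPC. In the Pcgf2 KO libraries the shares were 10.7% ± 0.919, 12.4% ± 1.53, 7.05% ± 0.795 and 9.15% ± 0.720 at the same stages. At EB day 3 both KO libraries therefore lay above both WT libraries. At EB day 8 both lay below, though there the higher KO library (7.61%) was close to the lower WT library (7.68%). The mean ratio of KO to WT was 1.64 at day 3 and 0.819 at day 8. With candidate nuclear copies added, as given below, the EB day 8 groups overlapped and WT EB day 3 lay closer to WT ESC. The 89 nuclear genes held 2.51% of the total in WT ESC and 2.52% in Pcgf2 KO ESC, 1.78% and 2.05% at EB day 3, 1.89% and 1.90% at EB day 8, and 1.96% and 1.61% in NPC. The nuclear share was thus higher in the KO at EB day 3 (ratio 1.15), where the mitochondrial share was also higher, and lower in NPC (ratio 0.821), where the mitochondrial ratio was 1.16. With 2 libraries against 2, an exact two-sided permutation test of such a sum cannot give a p below 0.333, so these sums are given without one.

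**Figure D1:**
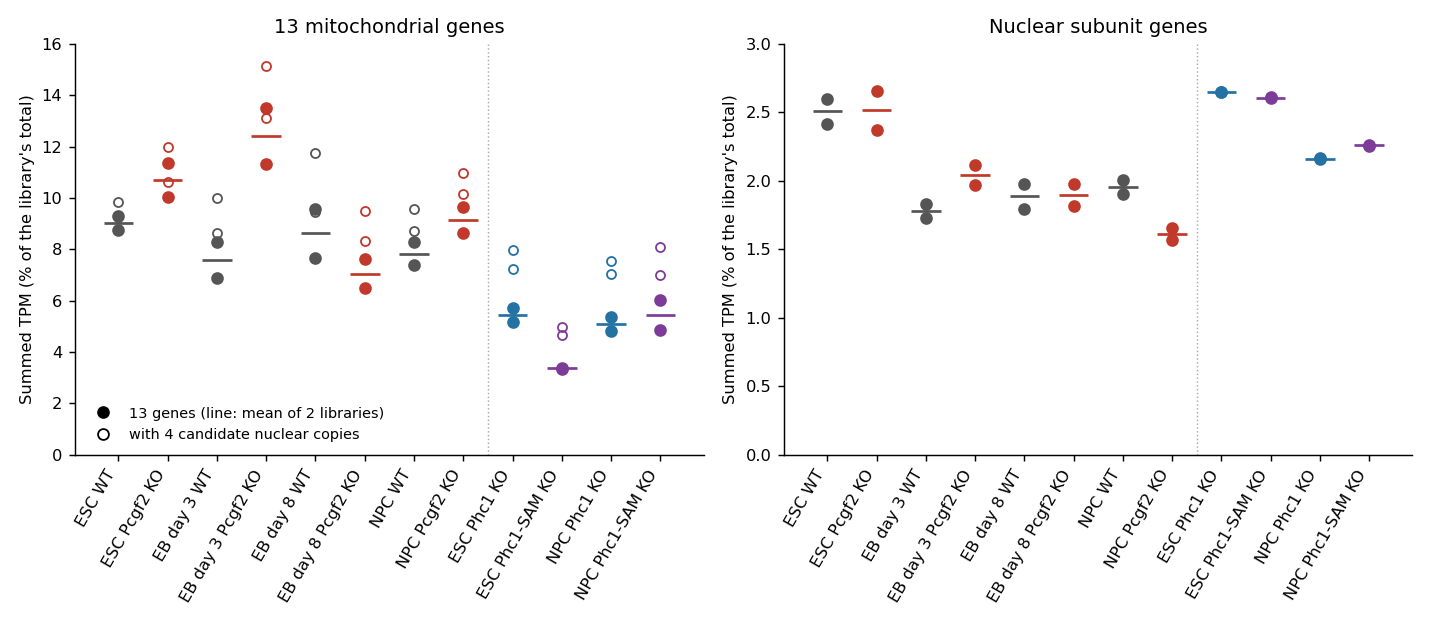
Summed TPM of the 13 mitochondrial genes (left) and the nuclear subunit genes (right) as a percent of each library's TPM total, by group; each filled point is 1 library, each line the mean of 2, and open points on the left add 4 candidate nuclear copies of mitochondrial genes. The dotted line parts the first table from the second, which were made apart, so levels are not compared across it. Pcgf2 KO EB day 3 has the highest mitochondrial mean of the first table (12.4%) and Phc1-SAM KO ESC the lowest of the second (3.37%).

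Reads from mitochondrial genes can also match copies of them in the nuclear genome, and how the deposited values split such reads bears on every mitochondrial value. RefSeq (GRCm38.p6) lists Gm10925 as a pseudogene on chromosome 1 at 24613971 to 24614651, with the same length of 681 bases as mt-Atp6 and with mt-Atp6 among its synonyms. In WT ESC, mt-Atp6 was at 13350 and 12410 TPM and Gm10925 at 0.529 and 0.0006 TPM. In WT EB day 3, mt-Atp6 was at 6649 and 5484 TPM and Gm10925 at 6827 and 7005 TPM. The sum of the pair was 12880 ± 665 TPM in WT ESC and 12980 ± 700 TPM in WT EB day 3, a difference of 0.01 on the log2 scale against -1.09 for mt-Atp6 alone. The pair also summed to 12850 ± 1881 TPM in WT EB day 8 and 12880 ± 77.8 TPM in WT NPC. Values of mt-Atp6 are therefore given below with and without this copy. The genes Gm28437, Gm28661 and Gm29216, which the RefSeq list used here does not hold, were carried as further candidate copies whose origin is unstated. With all 4 added the mitochondrial ratio of KO to WT was 1.52 at EB day 3 and 0.841 at EB day 8. The groups then overlapped at EB day 8, with KO replicate 1 at 9.50% and WT replicate 1 at 9.45% of the total. With the copies the WT shares were 9.565% in ESC, 9.33% at EB day 3, 10.6% at EB day 8 and 9.14% in NPC. The ratio of WT EB day 3 to WT ESC was 0.975 with them and 0.842 without. Gm28438, a gene with a similar name, was in none of these sums. Its mean was 834 TPM in WT ESC and 2050 TPM in WT EB day 3. Neighbouring mitochondrial genes overlap by 43 bases for mt-Atp8 and mt-Atp6, by 7 for mt-Nd4l and mt-Nd4, by 1 for mt-Atp6 and mt-Co3, and by 14 for mt-Nd5 and mt-Nd6, which lies on the opposite strand. The labels do not state strand use, so reads from mt-Nd5 and mt-Nd6 in their overlap cannot be told apart.

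**Figure D2:**
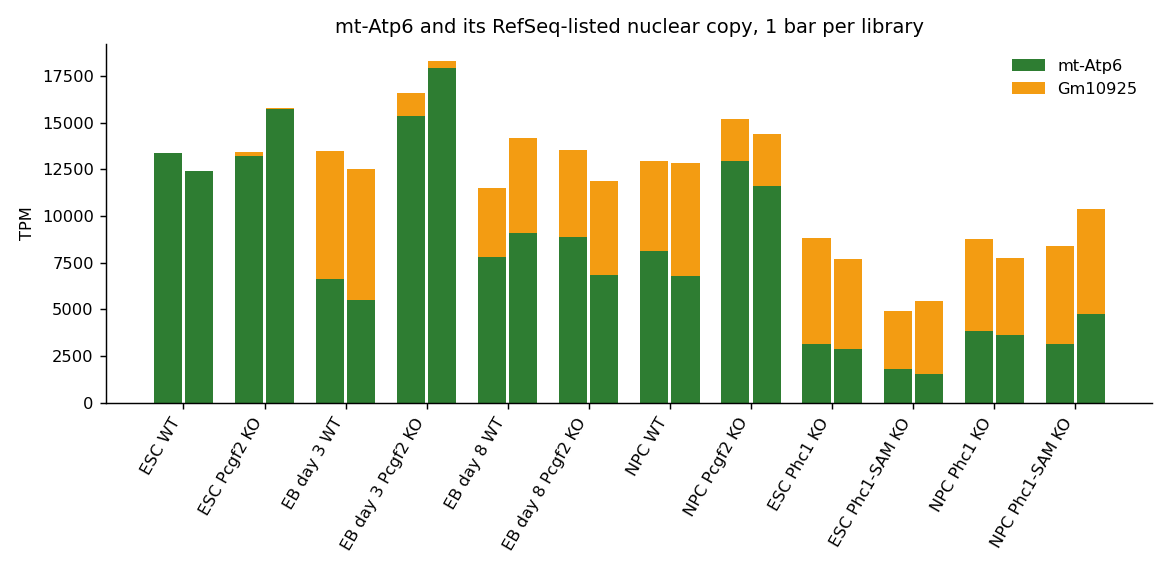
Stacked TPM of mt-Atp6 (green) and its RefSeq-listed nuclear copy Gm10925 (orange), 1 bar per library in 12 groups. The orange part is near 0 in WT ESC, is 6827 and 7005 TPM in WT EB day 3, and is 1222 and 349 TPM in Pcgf2 KO EB day 3, while the stacked height in the WT groups stays near 12850 to 12980 TPM on average.

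In WT cells, leaving the naive state was accompanied by a broad fall of the nuclear subunit genes. From WT ESC to WT EB day 3, 62 of 86 fell and 1 rose, against 19.1% of all genes tested that fell and 36.6% that rose. Of the genes tested, 26 of 40 of complex I fell, 7 of 8 of complex III, 13 of 17 of complex IV and 15 of 17 of complex V. Of the 4 genes of complex II 1 fell and 1 rose, with a median of -0.02. The median difference of the nuclear genes was -0.43 on the log2 scale, while that of all genes was 0.15. The 1 gene that rose was Sdha, the flavoprotein of complex II (0.18, SE 0.07, limma adjusted p = 0.0479), and median-of-ratios scaling, which divides each library by its median ratio to the mean library and brought the median of all genes to 0.00, turned its difference to -0.06. Its call was lost without ESC WT replicate 2 or EB day 3 WT replicate 1.

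Among those that fell, Atp5g1, which encodes the membrane ring subunit c of ATP synthase, was at 784 and 846 TPM in WT ESC and at 309 and 298 TPM in WT EB day 3 (difference -1.42, SE 0.10, limma adjusted p = 4.55e-07). Both EB libraries lay well below both ESC libraries. Its sister gene Atp5g3, which encodes the same mature protein, differed by -0.48 (SE 0.07, limma adjusted p = 7.56e-05). Cox7a1 was at 39.6 and 44.0 TPM in WT ESC and at 10.2 and 9.84 TPM in WT EB day 3 (difference -1.96, SE 0.12, limma adjusted p = 1.04e-07). Ndufa11, an accessory subunit of complex I, was at 229 and 284 TPM in WT ESC and at 118 and 103 TPM in WT EB day 3 (difference -1.20). Ndufb11b, a gene with a name like that of the complex I subunit Ndufb11, fell from 14.2 and 15.2 TPM to 0.647 and 0.777 TPM, while Ndufb11 itself was not called (-0.13, limma adjusted p = 0.321).

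Of the 13 mitochondrial genes 2 rose and 3 fell at this step, with a median of -0.13. With median-of-ratios scaling 0 rose and 7 fell, and with TPM rescaled to genes outside the mitochondrial genome 1 rose and 3 fell. The 2 that rose were mt-Co1 (0.28) and mt-Co3 (0.31), catalytic-core subunits of complex IV, and neither call held in any fit that left out 1 of the ESC or EB day 3 WT libraries. The 3 that fell were mt-Nd3 (-1.68), a complex I subunit, mt-Co2 (-0.93) and mt-Atp6 (-1.09), the last of which came to 0.01 once Gm10925 was added. Over the same step the mean of the candidate copy Gm28661 went from 0.0004 to 5956 TPM and that of Gm28437 from 0.0015 to 923 TPM. That of Gm29216 fell from 5464 to 3670 TPM. The genes they copy are unstated, so the part of divided reads in the falls of mt-Co2 and mt-Nd3 was not tested.

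From WT EB day 3 to WT EB day 8, 31 of 86 nuclear genes rose and 10 fell, shares near the 33.6% and 24.0% of all genes that did so, or below them, with a median of 0.14 against 0.07. The split was 19 higher and 11 lower with median-of-ratios scaling. Higher calls numbered 17 without EB day 3 WT replicate 2 and 20 without EB day 8 WT replicate 1, and lower calls 6 without EB day 3 WT replicate 1 or EB day 8 WT replicate 2. Alternative forms led the list. Ndufa4l2, a form of Ndufa4 known as a target of hypoxia signalling, went from 0.934 and 0.650 TPM to 11.6 and 10.4 TPM (difference 2.75, SE 0.22). Cox4i2, the form of Cox4i1 known from lung and from low oxygen, went from 1.17 and 1.28 TPM to 14.3 and 10.6 TPM (2.58, SE 0.16), while Cox4i1 had no call (-0.09). Cox6b2 went from 56.1 and 66.7 TPM to 123 and 131 TPM (1.04, SE 0.12). Of the mitochondrial genes 4 rose (mt-Co1, mt-Co3, mt-Nd5 and mt-Atp6) and 1 fell (mt-Nd1, -0.30). The number that rose was 2 without EB day 3 WT replicate 2 or EB day 8 WT replicate 2. The number that fell was 0 without EB day 3 WT replicate 1 or EB day 8 WT replicate 1 and after rescaling, and 3 without EB day 8 WT replicate 2. The mt-Atp6 difference of 0.48 came to -0.02 with Gm10925 added.

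WT NPC and WT EB day 8 came from different culture arms, with and without retinoic acid. In NPC 21 of 86 nuclear genes were higher and 12 lower, against 38.1% and 20.1% of all genes, with a median of 0.04 against 0.16, and the split was 3 higher and 21 lower with median-of-ratios scaling. Without EB day 8 WT replicate 2 the higher calls numbered 9, and without NPC WT replicate 2 they numbered 10. The lower calls numbered 7 without NPC WT replicate 1 or EB day 8 WT replicate 1. Among the lower genes, Cox4i2 was at 0.456 and 0.349 TPM in NPC (-3.25, SE 0.16), Ndufa4l2 at 0.894 and 0.607 TPM (-2.78, SE 0.22) and Cox7a1 at 4.49 and 3.64 TPM (-1.23, SE 0.12), each below both EB day 8 libraries. Ndufv3, a complex I subunit, was also lower (-0.95), and the alternative form Cox6b2 had no call (0.09, limma adjusted p = 0.563). Ndufs8, an iron-sulfur subunit of complex I, was higher, at 107 TPM in both NPC libraries against 52.8 and 45.2 TPM (1.12, SE 0.11). Of the mitochondrial genes 1 was higher (mt-Cytb, 0.34) and 4 lower (mt-Nd5, mt-Nd6, mt-Co1 and mt-Co3, -0.71 to -0.41). Quantile normalization gave 2 higher and 1 lower and median-of-ratios scaling 0 and 5. The split was 2 and 2 without EB day 8 WT replicate 2, and the higher call was lost without any of the other 3 libraries.

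From one end of the series to the other, WT NPC against WT ESC, 49 of 86 nuclear genes were lower and 10 higher, against 21.6% and 53.4% of all genes. The median was -0.25 against 0.46 for all genes, and median-of-ratios scaling, which brought the median of all genes to 0.07, gave 73 lower and 0 higher with a median of -0.76. Complex V had 12 lower and 0 higher of 17, and complex IV 13 lower and 2 higher of 17. The largest falls were those of Ndufb11b (-3.68), Cox7a1 (-3.08, SE 0.12, limma adjusted p = 8.47e-10), Ndufa4l2 (-1.93), Atp5g1 (-1.75) and Atp5g2 (-1.22). Cox7a2l (0.71) and Ndufs3, a core subunit of complex I (0.60), were among the 10 that were higher, as were Sdhb, the iron-sulfur subunit of complex II (0.49), and Cox6b2 (0.55). That of Sdhb turned to -0.02 with median-of-ratios scaling. Of the mitochondrial genes 5 were lower and 2 higher, with 10 lower and 0 higher under median-of-ratios scaling. Under quantile normalization 3 were lower and 5 higher. That method gives each rank the same value in every library, so it cannot show a shift shared by the most abundant genes. The splits differed with the scaling, and no direction is given for the mitochondrial genes. Lower calls numbered 3 without either ESC WT replicate or NPC WT replicate 1, and higher calls 1 without ESC WT replicate 1 and 0 without ESC WT replicate 2 or NPC WT replicate 1.

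In ESC, the libraries labelled Pcgf2 KO differed from WT in few respiratory chain genes. Of the 86 nuclear genes 8 were higher and 5 lower, against 24.9% and 11.0% of all genes, with a median of 0.00 against 0.10 for all genes. The split was 10 higher and 3 lower with quantile normalization and 3 higher and 10 lower with median-of-ratios scaling. The genes that were higher were led by Ndufa4l2, at 4.86 and 6.53 TPM in WT and at 23.0 and 29.3 TPM in KO (difference 2.02, SE 0.22, limma adjusted p = 3.62e-05). Cox6b2 was at 88.1 and 96.7 TPM in WT and at 189 and 218 TPM in KO (1.13, SE 0.12, limma adjusted p = 4.28e-05). Cox7a1 was at 39.6 and 44.0 TPM in WT and at 105 and 79.6 TPM in KO (1.11, SE 0.12). For all 3 both KO libraries lay above both WT libraries.

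The widespread partner forms Ndufa4 (-0.05), Cox6b1 (-0.06) and Cox7a2 (-0.19) had no call in ESC. The other genes named as higher were Uqcr10, a small subunit of complex III (0.59), and Atp5h, a stalk subunit of ATP synthase (0.48). The 5 lower genes were Ndufb11b (-0.55), Uqcrfs1, the Rieske iron-sulfur protein of complex III (-0.36), and the ATP synthase subunits Atp5d (-0.31), Atp5a1 (-0.21) and Atp5pb (-0.14), the last of which was 0.04 after quantile normalization. Without ESC WT replicate 2 the lower calls numbered 1 and without ESC Pcgf2 KO replicate 2 they numbered 0.

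Of the mitochondrial genes in ESC, mt-Co1 (0.64, SE 0.09, limma adjusted p = 0.000325), mt-Nd4l (0.43) and mt-Co3 (0.33) were higher in the KO and mt-Nd3 was lower (-0.94). The gene mt-Co1 was at 9882 and 9822 TPM in WT and at 15060 and 15660 TPM in KO, with no overlap. Higher calls numbered 1 without ESC WT replicate 2 and 1 without ESC Pcgf2 KO replicate 2, and the lower call was lost without ESC WT replicate 2 or ESC Pcgf2 KO replicate 1. With median-of-ratios scaling 1 was higher and 1 lower, and with quantile normalization 2 and 2.

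**Figure D3:**
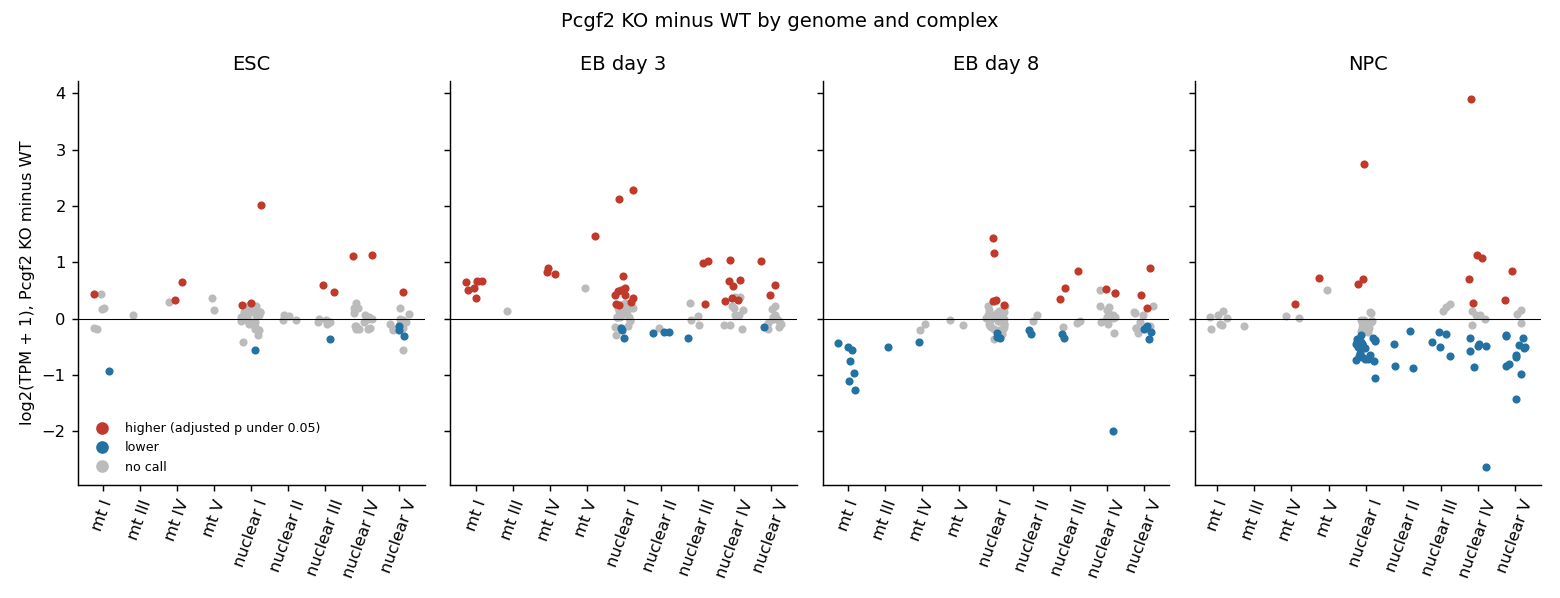
Difference in log2(TPM + 1), Pcgf2 KO minus WT, for each tested respiratory chain gene at 4 stages, by genome (mt, mitochondrial) and complex; red points were higher and blue points lower at a limma adjusted p under 0.05, and grey points had no call. Red points prevail at EB day 3 in both genomes, blue points among the mitochondrial genes at EB day 8 and among the nuclear genes in NPC, where Cox7a1 (3.89) and Cox6b2 (-2.63) stand at the ends.

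At EB day 3 the Pcgf2 KO libraries had higher levels of genes of both genomes. Of the 86 nuclear genes 25 were higher and 8 lower, against 16.7% and 31.9% of all genes, with a median of 0.15 against -0.11. Rescaling to genes outside the mitochondrial genome gave 35 higher and 3 lower, quantile normalization 39 and 0, and median-of-ratios scaling, which brought the median of all genes to 0.04, gave 40 and 0. The higher calls lay in complex I (12 of 40), complex III (3 of 8), complex IV (7 of 17) and complex V (3 of 17), whereas complex II had 0 higher and 3 lower of 4. The lower calls numbered 4 without either WT replicate 2 or Pcgf2 KO replicate 2, and 5 without either replicate 1.

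Atp5g1 was at 309 and 298 TPM in WT EB day 3 and at 630 and 604 TPM in KO (difference 1.02, SE 0.10, limma adjusted p = 1.34e-05). Uqcr10 was at 247 and 206 TPM in WT and at 480 and 442 TPM in KO (1.03, SE 0.14, limma adjusted p = 9.43e-05). Uqcrq, another small subunit of complex III, was at 202 and 172 TPM in WT and at 376 and 364 TPM in KO (0.98, SE 0.14). In each case the KO libraries lay far above the WT libraries. Among complex IV genes Cox7a1 (1.04), Cox8a (0.68), Cox6b2 (0.66), Cox6a1 (0.58) and Cox7b (0.36) were higher. Ndufa4l2 was at 0.934 and 0.650 TPM in WT and at 9.94 and 5.90 TPM in KO (2.28, SE 0.22). The 4 primed epiblast markers summed to 1118 to 1211 TPM in WT EB day 3 and to 762 to 765 TPM in KO, all 4 at 1 TPM or more in both. The 6 naive and core pluripotency markers summed to 1513 to 1535 TPM in WT and to 1476 to 1543 TPM in KO, but within that sum Zfp42 (3.14), Esrrb (2.30), Klf4 (2.15) and Tfcp2l1 (1.09) were higher in KO and Pou5f1 (-0.34) and Nanog (-0.15) had no call. The part of these markers in the result was not tested. Genes that were lower included the complex I subunits Ndufv2 (-0.35) and Ndufs1 (-0.21), the core subunit Uqcrc2 of complex III (-0.34) and the complex II subunits Sdha (-0.26), Sdhc (-0.24) and Sdhd (-0.24).

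Of the 13 mitochondrial genes 10 were higher in Pcgf2 KO EB day 3 and 0 lower, with a median of 0.65, and 4 were higher after quantile normalization. Complex IV genes were high together: mt-Co1 was at 11940 and 11930 TPM in WT and at 19420 and 22040 TPM in KO (0.79, SE 0.09, limma adjusted p = 4.15e-05), a difference that quantile normalization turned to -0.18. The difference of mt-Co3 was 0.83 (SE 0.10, limma adjusted p = 5.65e-05) and that of mt-Co2 was 0.89 (SE 0.18). Complex I genes differed by 0.37 for mt-Nd2 to 0.66 for mt-Nd4 and mt-Nd6 among those called, and mt-Nd1 came to 0.00 after quantile normalization. The cytochrome b gene mt-Cytb, the mitochondrial subunit of complex III, had no call (0.13, limma adjusted p = 0.339). The gene mt-Atp6 was at 6649 and 5484 TPM in WT and at 15350 and 17940 TPM in KO (1.46, SE 0.16), while its copy Gm10925 was at 6827 and 7005 TPM in WT and at 1222 and 349 TPM in KO. Summed with the copy, the difference was 0.42 (limma adjusted p = 0.0114).

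At EB day 8 the mitochondrial genes stood the other way. Of 13, 9 were lower in Pcgf2 KO and 0 higher, with a median of -0.50, against 17.1% of all genes that were lower and 20.6% that were higher, and the same count of 9 was found under rescaling, median-of-ratios scaling and quantile normalization. All 7 complex I genes and mt-Cytb and mt-Co3 were lower. The gene mt-Nd5 was at 1736 and 2201 TPM in WT and at 994 and 837 TPM in KO (-1.10, SE 0.16, limma adjusted p = 0.000213). The gene mt-Nd6 was at 2563 and 3626 TPM in WT and at 1550 and 1038 TPM in KO (-1.26, SE 0.21, limma adjusted p = 0.000577). In both genes the KO libraries lay below the WT libraries, and WT replicate 2 was the higher of its pair. The 4 genes with no call were mt-Co1 (-0.10), mt-Co2 (-0.20), mt-Atp6 (-0.11) and mt-Atp8 (-0.03), and lower calls numbered 5 without EB day 8 WT replicate 2.

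**Figure D4:**
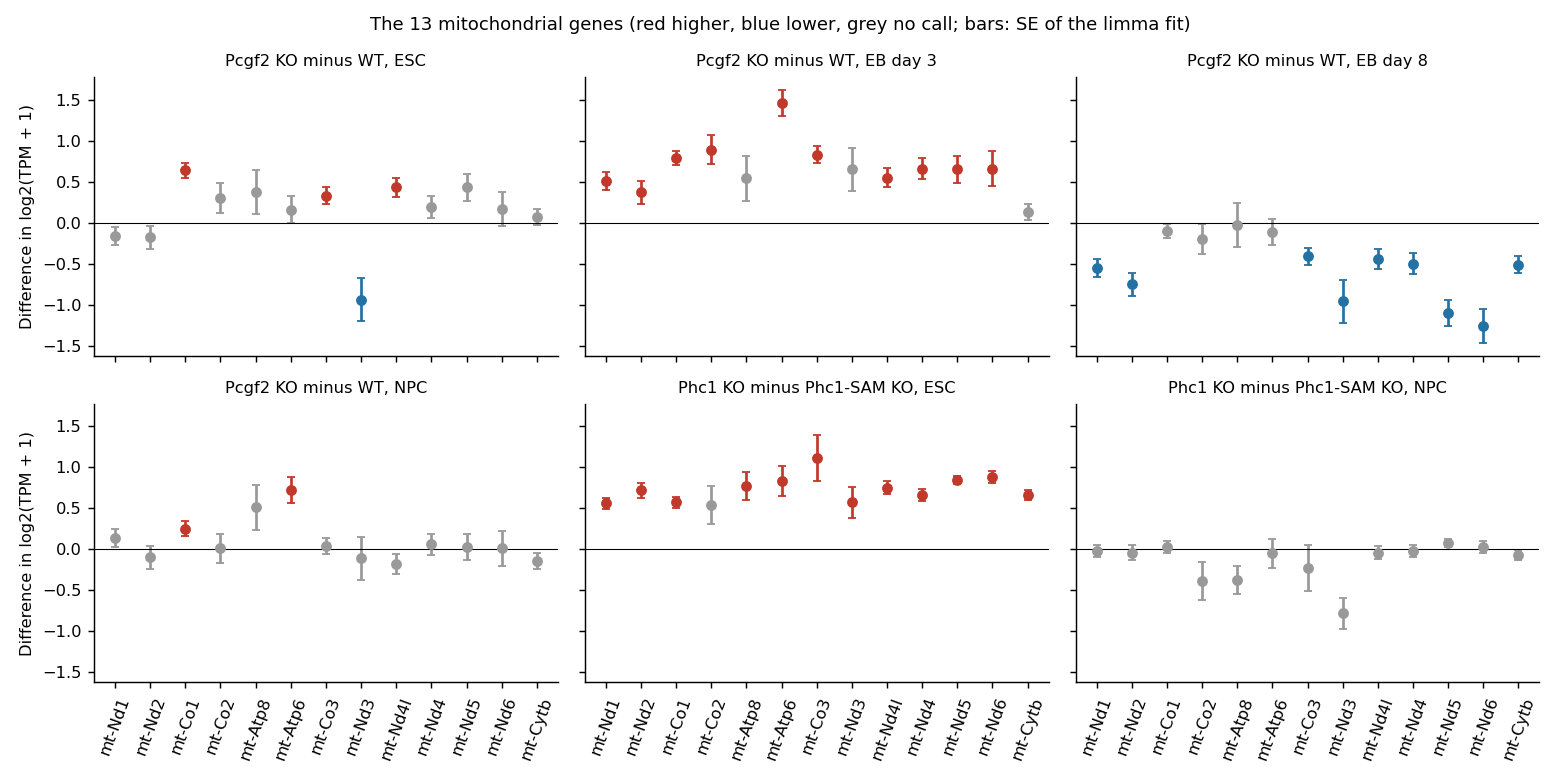
Difference in log2(TPM + 1) for each of the 13 mitochondrial genes, in genome order, in 6 comparisons; points are limma estimates, bars their SE, red higher, blue lower and grey no call. At EB day 3 the points lie between 0.13 and 1.46, at EB day 8 between -1.26 and -0.03, and for Phc1 KO against Phc1-SAM KO in ESC between 0.54 and 1.11.

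The nuclear genes at EB day 8 were split, with 13 higher and 12 lower of 86 and a median of -0.01 against 0.04. Lower calls numbered 4 without EB day 8 WT replicate 1 and 5 without EB day 8 Pcgf2 KO replicate 1, and higher calls numbered 8 without EB day 8 WT replicate 2. Ndufa4l2 was at 11.6 and 10.4 TPM in WT and at 35.0 and 28.1 TPM in KO (1.43, SE 0.22, limma adjusted p = 0.000365). Atp5g1 was at 216 and 173 TPM in WT and at 359 and 360 TPM in KO (0.89, SE 0.10, limma adjusted p = 5.75e-05). Uqcr10 (0.84), Uqcrq (0.55) and Cox6b2 (0.53) were also higher. Lower genes included Atp5k, the e subunit of ATP synthase (-0.37), the hinge protein Uqcrh of complex III (-0.35), Ndufs5 (-0.34), and Sdhc (-0.21) and Sdhd (-0.28), the membrane anchors of complex II. Cox6c2, which RefSeq lists as a pseudogene, was at 7.52 and 5.45 TPM in WT and at 0.786 and 0.935 TPM in KO (-1.99, SE 0.53). Cox6c had no call (0.07).

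Markers of other cell types moved with this comparison. The 5 primitive blood markers all reached 1 TPM in both groups and summed to 4805 to 5452 TPM in WT EB day 8 and to 240 to 264 TPM in KO. The 5 yolk sac and endoderm markers summed to 582 to 603 TPM and 128 to 129 TPM, and the 4 fibroblast markers to 1022 to 1070 TPM and 138 to 152 TPM. The 6 pluripotency markers summed to 133 to 151 TPM in WT and to 497 to 499 TPM in KO. Their part in the result was not tested.

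In NPC many nuclear genes of complexes I, II, III and V were lower in the Pcgf2 KO libraries, while those of complex IV were split. Of 86, 50 were lower and 10 higher, against 34.7% and 31.5% of all genes, with a median of -0.34 against -0.03, and 39 were lower and 10 higher with median-of-ratios scaling. All 4 complex II genes were lower, as were 22 of 40 of complex I, 5 of 8 of complex III and 12 of 17 of complex V. Complex IV had 7 lower and 5 higher of 17 and a median of 0.00. The sums of pluripotency, neural progenitor and germline markers moved with this comparison too. The 3 germline markers summed to 0.568 to 0.703 TPM in WT NPC and to 60.4 to 75.5 TPM in KO. The 5 primitive blood markers summed to 569 to 591 TPM in WT NPC and to 2.02 to 2.94 TPM in KO, with Hbb-bh1 at 0 in KO, and the 4 fibroblast markers to 168 to 196 TPM and 3.13 to 3.72 TPM. The part of these differences in the result was not tested.

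Atp5k was at 339 and 360 TPM in WT NPC and at 128 and 130 TPM in KO (difference -1.43, SE 0.08, limma adjusted p = 3.65e-08). Sdhb was at 140 and 149 TPM in WT and at 74.6 and 80.8 TPM in KO (-0.88, SE 0.12, limma adjusted p = 5.39e-05). Sdhc was at 282 and 249 TPM in WT and at 152 and 144 TPM in KO (-0.84, SE 0.07, limma adjusted p = 6.65e-07). The KO libraries lay below the WT libraries in all 3 genes. Ndufa2, an accessory subunit of complex I, was lower by a similar size (-1.05, SE 0.10), as was Atp5e, the epsilon subunit of ATP synthase (-0.99, SE 0.14). Of the widespread complex IV forms, Cox7a2 (-0.48), Cox6b1 (-0.45) and Cox8a (-0.58) were lower, while Cox4i1 (0.06) and Cox6a1 (0.13) had no call.

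Alternative forms of complex IV subunits differed widely in NPC, in opposite directions. Cox7a1 was at 4.49 and 3.64 TPM in WT NPC and at 73.9 and 73.25 TPM in KO (3.89, SE 0.12, limma adjusted p = 2.15e-10). Cox6b2 was at 140 and 131 TPM in WT NPC and at 23.5 and 18.9 TPM in KO (-2.63, SE 0.12, limma adjusted p = 5.98e-09). Neither pair of groups overlapped, and Cox6b2 was the higher in KO at the other 3 stages (0.53 to 1.13). The 11 cardiac and skeletal muscle markers, named because Cox7a1 is known from muscle, summed to 27.9 to 34.0 TPM in WT NPC and to 16.2 to 17.9 TPM in KO, with Myod1 listed at 0 in both groups. The other muscle forms were at or near 0: Cox6a2 reached 0.262 TPM and Cox8b 0.300 TPM at most in KO NPC. Atp5g1 was at 224 and 260 TPM in WT and at 420 and 448 TPM in KO (0.84, SE 0.10), against lower levels of Atp5g3 (-0.34) and Atp5g2 (-0.81), whose genes encode the same mature subunit. Ndufb11b was at 0.224 and 0.229 TPM in WT and at 5.99 and 8.58 TPM in KO (2.74, SE 0.16), while Ndufb11 was lower (-0.67).

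**Figure D5:**
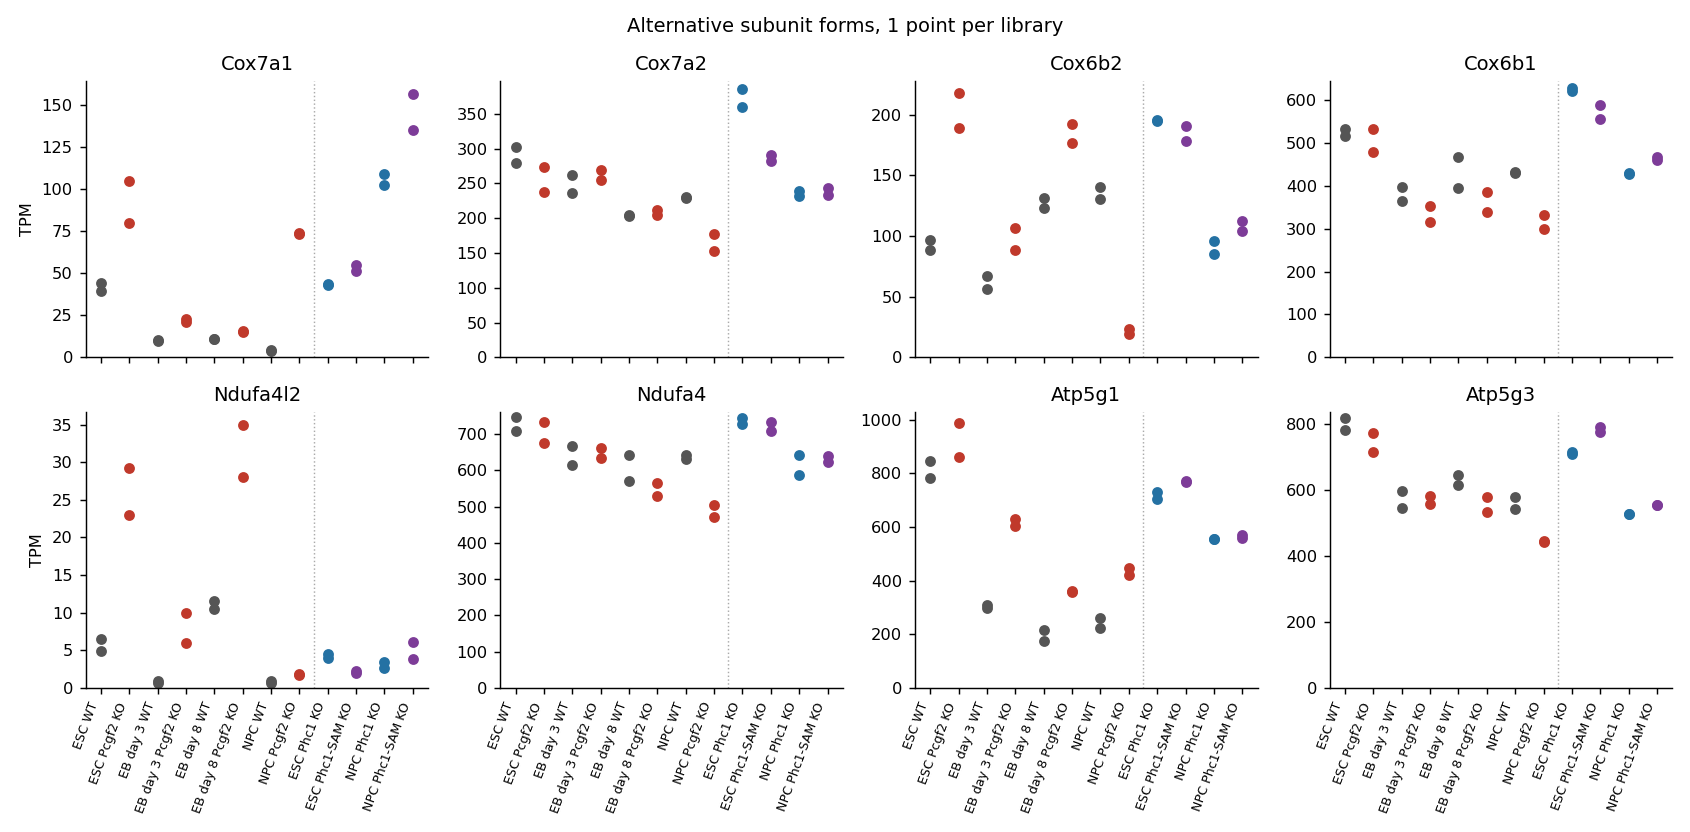
TPM of 4 alternative forms or isogenes (Cox7a1, Cox6b2, Ndufa4l2 and Atp5g1) and of a partner of each (Cox7a2, Cox6b1, Ndufa4 and Atp5g3), 1 point per library in 12 groups, each panel on its own linear axis from 0; the dotted line parts the tables. In the first table Cox7a1 is near 4 TPM in WT NPC and at 73.9 and 73.25 TPM in Pcgf2 KO NPC, where Cox6b2 is lowest. In the second, made apart, Cox7a1 is at 102 to 156 TPM in the KO NPC libraries.

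Promoter windows from RefSeq (GRCm38.p6), 250 bases before to 50 after an annotated start, were found for 68 nuclear genes. The first window listed for each gene was used, and windows at other starts were not searched. That of Cox7a2 lies inside its gene, which spans chr9:79755241-79771422. Cox7a1 and Cox6b2 are shown first, each with its widespread partner, because they moved in opposite directions in NPC. Capitals mark a match on either strand to GCGCA followed by any base and GCGC (NRF1), CCGGAAGT (ETS factors) or AANATGGCG (YY1), regulators known from respiratory genes. These 4 windows hold no match, with 7 CG dinucleotides for Cox7a1, 20 for Cox7a2, 10 for Cox6b2 and 17 for Cox6b1.
Cox7a1 promoter, chr7:30183921-30184220, plus strand: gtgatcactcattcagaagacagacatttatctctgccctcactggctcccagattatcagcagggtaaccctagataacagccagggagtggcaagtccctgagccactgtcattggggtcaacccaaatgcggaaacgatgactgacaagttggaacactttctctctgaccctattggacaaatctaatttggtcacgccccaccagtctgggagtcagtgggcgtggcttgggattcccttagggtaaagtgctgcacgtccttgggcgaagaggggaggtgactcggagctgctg
Cox7a2 promoter, chr9:79759804-79760103, minus strand: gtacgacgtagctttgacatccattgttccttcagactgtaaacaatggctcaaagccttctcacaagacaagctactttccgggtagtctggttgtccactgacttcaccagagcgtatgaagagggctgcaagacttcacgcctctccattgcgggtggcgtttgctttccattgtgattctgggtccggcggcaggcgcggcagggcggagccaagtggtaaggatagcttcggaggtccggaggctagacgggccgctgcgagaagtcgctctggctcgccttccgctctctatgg
Cox6b2 promoter, chr7:4753045-4753344, minus strand: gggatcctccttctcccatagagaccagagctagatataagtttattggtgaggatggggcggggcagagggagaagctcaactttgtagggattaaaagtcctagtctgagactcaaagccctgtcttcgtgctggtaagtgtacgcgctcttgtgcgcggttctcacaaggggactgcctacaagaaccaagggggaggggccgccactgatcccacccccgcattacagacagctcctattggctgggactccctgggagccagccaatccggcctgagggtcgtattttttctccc
Cox6b1 promoter, chr7:30626065-30626364, minus strand: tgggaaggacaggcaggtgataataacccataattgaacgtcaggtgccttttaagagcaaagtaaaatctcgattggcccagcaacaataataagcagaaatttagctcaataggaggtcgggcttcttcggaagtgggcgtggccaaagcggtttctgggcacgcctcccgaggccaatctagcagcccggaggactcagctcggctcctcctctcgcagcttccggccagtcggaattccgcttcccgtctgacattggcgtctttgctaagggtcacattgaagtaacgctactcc

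The next 2 are shown because they hold such letters: Atp5h, which was higher in Pcgf2 KO at 3 stages, matches the NRF1 and the ETS letters, and Atp5k, lower at EB day 8 and in NPC, matches the NRF1 letters. They hold 32 and 19 CG dinucleotides. Of genes not shown, Atp5g1, also higher at 3 stages, holds no match, and Sdhd, lower at 3 stages, matches the NRF1 letters. Whether the letters go with a direction of change was not tested.
Atp5h promoter, chr11:115419870-115420169, minus strand: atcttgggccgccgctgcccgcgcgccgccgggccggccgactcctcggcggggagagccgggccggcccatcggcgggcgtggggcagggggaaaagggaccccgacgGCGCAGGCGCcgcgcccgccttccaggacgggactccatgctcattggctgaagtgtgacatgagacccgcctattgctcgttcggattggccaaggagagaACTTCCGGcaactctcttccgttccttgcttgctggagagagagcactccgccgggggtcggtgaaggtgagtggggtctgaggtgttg
Atp5k promoter, chr5:108434350-108434649, minus strand: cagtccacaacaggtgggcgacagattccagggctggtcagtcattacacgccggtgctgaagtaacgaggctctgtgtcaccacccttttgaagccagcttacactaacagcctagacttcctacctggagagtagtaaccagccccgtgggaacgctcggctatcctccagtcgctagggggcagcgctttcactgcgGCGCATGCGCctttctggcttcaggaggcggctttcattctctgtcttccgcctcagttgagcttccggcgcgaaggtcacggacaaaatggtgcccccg

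Of the 68 windows, 16 (23.5%) held the NRF1 letters, against 4.78% of all 27025 windows. The ETS letters were in 5 (7.35%) against 4.00%, and the YY1 letters in 8 (11.8%) against 2.51%. Any of the 3 was found in 27 (39.7%) against 10.4%. The windows of respiratory genes had a median of 19 CG dinucleotides, with a range of 2 to 43, against a median of 7 over all windows. Each of the 3 patterns holds CG itself, and the windows of all genes were not matched for CG content or expression. The excess of letters therefore cannot be told apart from the higher CG content. These are descriptions of letters, since longer matches to a factor's known site were not sought.

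Of the mitochondrial genes in NPC, mt-Co1 (0.25, limma adjusted p = 0.0374) and mt-Atp6 (0.72, limma adjusted p = 0.00184) were higher in KO and 0 were lower, with a median of 0.03. The call of mt-Atp6 did not hold with Gm10925 added (0.20, limma adjusted p = 0.163), and mt-Co1 came to 0.00 after quantile normalization, which gave 1 higher and 1 lower. Higher calls numbered 1 without NPC WT replicate 1, NPC WT replicate 2 or NPC Pcgf2 KO replicate 1. The other 11 mitochondrial genes had differences from -0.18 to 0.51 and no call.

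Across the 4 stages, 2 nuclear genes were higher in Pcgf2 KO at each, Cox7a1 and Ndufa4l2, against 3.67% of all genes. In NPC Ndufa4l2 was near the floor, at 0.894 and 0.607 TPM in WT and 1.76 and 1.90 TPM in KO. Genes lower at each stage numbered 0, against 1.38%. At 3 or more stages 10 of 86 were higher, against 11.3% of all genes: Cox7a1, Ndufa4l2, Cox6b2, Ndufb11b, Ndufv1, Uqcr10, Uqcrq, Atp5b, Atp5g1 and Atp5h. At 3 or more stages 2 were lower, Sdhc and Sdhd, against 8.43%. These shares are near or below those of all genes. Sdhc and Sdhd had no call in ESC, and their calls at EB day 3 did not hold with median-of-ratios scaling or quantile normalization. Calls in both directions at different stages were made for 12 nuclear and 7 mitochondrial genes. No call at any stage was made for 9 nuclear and 1 mitochondrial gene. The shares of all genes with these patterns were not worked out, so both counts are descriptions only.

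The change of the KO difference between stages was tested in the same limma fit as an interaction. Against the difference in ESC, that at EB day 3 was higher for 13 nuclear genes and lower for 4 of 86 (8.54% and 31.1% of all genes), and higher for 5 mitochondrial genes and lower for 0 (2 and 1 with quantile normalization). Rescaling gave 23 and 3 nuclear genes, quantile normalization 15 and 1, and median-of-ratios scaling 40 and 0. Higher nuclear calls numbered 21 without ESC Pcgf2 KO replicate 1 and 5 without ESC WT replicate 2, ESC Pcgf2 KO replicate 2, EB day 3 WT replicate 2 or EB day 3 Pcgf2 KO replicate 1. Lower ones numbered 2 without ESC WT replicate 2, EB day 3 WT replicate 2 or EB day 3 Pcgf2 KO replicate 2, and higher mitochondrial calls 3 without ESC Pcgf2 KO replicate 1, EB day 3 WT replicate 2 or EB day 3 Pcgf2 KO replicate 2. At EB day 8 it was higher for 6 and lower for 8 nuclear genes (14.1% and 22.0%) and lower for 8 of 13 mitochondrial genes, with 5 and 4 nuclear genes under median-of-ratios scaling. Higher nuclear calls numbered 3 without replicate 2 of any of the 4 groups, and lower ones 4 without ESC WT replicate 1 and 5 without ESC Pcgf2 KO replicate 1, EB day 8 WT replicate 1 or EB day 8 Pcgf2 KO replicate 1. In NPC it was higher for 9 and lower for 42 nuclear genes (23.0% and 34.2%), or 10 and 19 under median-of-ratios scaling. For the mitochondrial genes in NPC the split was 0 and 2, and it was 3 and 0 with median-of-ratios scaling and 2 and 2 with quantile normalization, so no direction can be given. Without ESC Pcgf2 KO replicate 2 it was 2 and 1 and without NPC WT replicate 1 it was 1 and 1, and the lower call numbered 1 without either ESC WT replicate or NPC Pcgf2 KO replicate 2. The interaction was 2.77 for Cox7a1 (limma adjusted p = 1.36e-07) and -3.76 for Cox6b2 (limma adjusted p = 1.72e-08) in NPC.

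Within the Pcgf2 KO line, 52 of 86 nuclear genes fell from ESC to EB day 3 and 0 rose (27.0% and 19.2% of all genes), while 6 of 13 mitochondrial genes rose and 0 fell, or 1 and 1 with quantile normalization. From EB day 3 to EB day 8, 12 of 13 mitochondrial genes fell and 0 rose, with a median of -1.07, and 17 nuclear genes rose and 25 fell (43.0% and 15.7% of all genes), or 4 and 47 with median-of-ratios scaling. KO NPC against KO EB day 8 had 10 mitochondrial genes higher and 0 lower, with a median of 0.55, and 8 nuclear genes higher and 42 lower (35.8% and 26.6%). KO NPC against KO ESC had 65 nuclear genes lower and 1 higher (19.3% and 47.5%), with a median of -0.54. The 1 that was higher was Cox7a2l (0.27), which turned to -0.05 with median-of-ratios scaling, and the largest falls were those of Ndufa4l2 (-3.25), Cox6b2 (-3.21) and Cox8a (-1.64). These comparisons share their libraries with those of KO against WT. From ESC to EB day 3 the nuclear genes that fell numbered 33 and the mitochondrial genes that rose 3 without ESC Pcgf2 KO replicate 1 or EB day 3 Pcgf2 KO replicate 2. From EB day 3 to EB day 8 the nuclear genes that rose numbered 11 without EB day 3 Pcgf2 KO replicate 2, and those that fell 16 without EB day 3 Pcgf2 KO replicate 1. Mitochondrial genes higher in NPC than at EB day 8 numbered 4 without NPC Pcgf2 KO replicate 1 and 5 without EB day 8 Pcgf2 KO replicate 2. The call of Cox7a2l was lost without replicate 2 of either group.

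Nearly all mitochondrial genes were higher in Phc1 KO ESC than in Phc1-SAM KO ESC. Of 13, 12 were higher in Phc1 KO and 0 lower, with a median of 0.72, against 30.9% and 12.8% of all genes, and 11 were higher under both median-of-ratios scaling and quantile normalization. The share of the 13 genes was 5.43% ± 0.395 in Phc1 KO ESC and 3.37% ± 0.0297 in Phc1-SAM KO ESC, a ratio of 1.61, or 1.58 with the 4 candidate copies. The gene mt-Nd5 was at 1864 and 1698 TPM in Phc1 KO and at 975 and 1011 TPM in Phc1-SAM KO (0.84, SE 0.05, limma adjusted p = 4.17e-05). The gene mt-Cytb was at 6690 and 6182 TPM in Phc1 KO and at 3990 and 4141 TPM in Phc1-SAM KO (0.66, SE 0.06, limma adjusted p = 0.000145). In both genes the groups were far apart. The largest difference was that of mt-Co3 (1.11, SE 0.28), and mt-Co2 had no call (0.54, limma adjusted p = 0.096). With Gm10925 added, mt-Atp6 differed by 0.67 (limma adjusted p = 0.00389) in place of 0.83, and mt-Co1 by 0.57, or 0.00 under quantile normalization, which gives the top gene of each library the same value.

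The nuclear genes of the same ESC libraries were split, with 18 higher and 20 lower of 81 and a median of -0.03 against 0.13. Rescaling gave 20 and 11, quantile normalization 23 and 13, and median-of-ratios scaling 6 and 43, so no direction can be given for them together. Lower calls numbered 11 or 12 without Phc1 KO replicate 2 or either Phc1-SAM KO replicate. Complex IV had 6 higher and 1 lower of 16, and complex V 1 higher and 7 lower of 16. Cox6a1, a widespread complex IV subunit, was at 1015 and 991 TPM in Phc1 KO and at 675 and 658 TPM in Phc1-SAM KO (0.59, SE 0.03, limma adjusted p = 9.54e-06). Ndufa1 (0.40), Cox7a2 (0.38) and Ndufb9 (0.37) were also higher, and Atp5e (-0.33), Cox7a1 (-0.29) and Atp5a1, the alpha subunit of ATP synthase (-0.28), were lower. The 4 fibroblast markers, all 4 at 1 TPM or more in Phc1 KO ESC and 3 in Phc1-SAM KO ESC, summed to 278 to 298 TPM there and to 12.1 to 12.6 TPM in Phc1-SAM KO ESC, and their part in the result was not tested.

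As NPC the 2 lines had no mitochondrial gene called: limma gave 0 higher and 0 lower of 13, with 0 higher and 1 lower (mt-Nd3, -0.78, limma adjusted p = 0.0782) at an unadjusted p under 0.05, and quantile normalization gave 1 higher. Of 81 nuclear genes 0 were higher and 7 lower in Phc1 KO, against 2.52% and 1.52% of all genes, and these calls numbered 1 without Phc1-SAM KO replicate 1 and 0 without any other NPC library. Cox7a1 was at 109 and 102 TPM in Phc1 KO NPC and at 135 and 156 TPM in Phc1-SAM KO NPC (-0.46, SE 0.08, limma adjusted p = 0.027). From ESC to NPC 12 of 13 mitochondrial genes rose and 0 fell in Phc1-SAM KO, with a median of 0.62. In Phc1 KO 0 rose and 5 fell, or 1 and 5 with quantile normalization. Their share was 3.37% in Phc1-SAM KO ESC, against 5.43% in Phc1 KO ESC, 5.10% in Phc1 KO NPC and 5.45% in Phc1-SAM KO NPC. A test of the difference between these changes was added after the data had been seen. The test called 12 of 13 mitochondrial genes and 0 in the other direction, with a median of -0.79. It uses the same libraries as the comparisons of the lines in ESC (median 0.72) and in NPC (median -0.04), so it is no separate result. It called 9 nuclear genes higher and 19 lower (10.7% and 21.2% of all genes), or 20 and 9 with median-of-ratios scaling, 5 and 24 after rescaling and 3 and 28 with quantile normalization, so no direction can be given for the nuclear genes. Their higher calls numbered 3 without NPC Phc1 KO replicate 1 and 4 without ESC Phc1 KO replicate 2, either ESC Phc1-SAM KO replicate or NPC Phc1-SAM KO replicate 1.

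From ESC to NPC, 41 of 81 nuclear genes fell and 13 rose in Phc1 KO (27.8% and 35.0% of all genes), and 41 fell and 19 rose in Phc1-SAM KO (23.8% and 43.8%). Quantile normalization gave 35 and 24 in Phc1 KO and 23 and 30 in Phc1-SAM KO, and median-of-ratios scaling gave 59 and 11 in Phc1-SAM KO, so no direction can be given for the genes of that line together. Cox7a1 rose in both, from 43.8 and 43.0 TPM to 109 and 102 TPM in Phc1 KO (1.26, SE 0.08) and from 51.4 and 54.9 TPM to 135 and 156 TPM in Phc1-SAM KO (1.43, SE 0.08). Cox6b2 fell in both, from 196 and 195 TPM to 85.3 and 95.9 TPM in Phc1 KO (-1.10, SE 0.07) and from 179 and 191 TPM to 112 and 104 TPM in Phc1-SAM KO (-0.77, SE 0.07). Cox8a (-0.97 and -0.75) fell and Cox7a2l (0.75 and 0.92) rose in both lines. In the WT line of the first table Cox7a1 fell over the same stages and Cox6b2 rose, but the tables were made apart and no test was run across them.

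Some respiratory genes share much of their sequence with copies, and how reads were divided between them is uncertain. Ndufa12, a complex I subunit, was at 106 to 186 TPM over the first table, while Ndufa12-ps, left out by its name, was at 138 to 258 TPM. Ndufb4 was at 34.3 to 78.2 TPM and Ndufb4c at 117 to 317 TPM. Ndufs5 was at 60.9 to 115 TPM and Ndufs5-ps at 89.4 to 167 TPM. The testis and muscle forms Cox7b2, Cox8c, Cox6a2 and Cox8b stayed under 2 TPM in every library.

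Genes that build or supply the chain were described beside it, from lists chosen for their function. The shares of all genes that were higher and lower, to be read beside each count, were 24.9% and 11.0% in ESC, 16.7% and 31.9% at EB day 3, 20.6% and 17.1% at EB day 8, and 31.5% and 34.7% in NPC. Of 47 tested assembly factors 16 were higher and 4 lower in Pcgf2 KO ESC, 10 and 13 at EB day 3, 17 and 5 at EB day 8, and 9 and 17 in NPC. Cox17, a copper chaperone of complex IV, was higher at EB day 3 (1.05, SE 0.11) and in NPC (0.95, SE 0.11), and Cox14 was lower in ESC (-0.98) and higher at EB day 3 (1.21). Of 80 tested proteins of the mitochondrial ribosome 9 were higher and 17 lower in ESC, 17 and 11 at EB day 3, 33 and 5 at EB day 8, and 17 and 25 in NPC. In WT cells 39 of these 80 fell and 7 rose from ESC to EB day 3, against 19.1% and 36.6% of all genes. Of 30 genes of mitochondrial DNA and RNA upkeep 5 were higher and 5 lower in ESC, 4 and 9 at EB day 3, 10 and 2 at EB day 8, and 11 and 11 in NPC. Polg, the mitochondrial DNA polymerase, was lower at EB day 3 (-1.01) and higher in NPC (1.46). Tfam, which packages mitochondrial DNA and starts its transcription, was lower at EB day 3 and in NPC (-0.39 at both) and had no call at EB day 8 (-0.05).

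The same shares of all genes (24.9% and 11.0%, 16.7% and 31.9%, 20.6% and 17.1%, 31.5% and 34.7%) stand beside the next lists. Of 14 tested nuclear regulators of respiratory genes 3 were higher and 2 lower in Pcgf2 KO ESC, 3 and 9 at EB day 3, 8 and 1 at EB day 8, and 6 and 4 in NPC. Esrrb, a nuclear receptor of naive cells that also binds respiratory genes, was higher at EB day 3 (2.30), EB day 8 (2.30) and in NPC (5.38, SE 0.15). Nrf1 was higher in ESC (0.33) and at EB day 8 (0.31) and lower at EB day 3 (-0.48). Of 13 citric acid cycle genes 4 were higher and 2 lower in ESC, 1 and 7 at EB day 3, 3 and 1 at EB day 8, and 5 and 3 in NPC. Of 19 glycolysis genes 1 was higher and 9 lower in ESC, 3 and 9 at EB day 3, 8 and 2 at EB day 8, and 6 and 7 in NPC. Cycs, the somatic cytochrome c that carries electrons from complex III to complex IV, was lower in KO in ESC (-0.49) and at EB day 3 (-0.34) and higher in NPC (0.45). In WT cells 17 of the 19 glycolysis genes were lower in NPC than in ESC and 2 higher, with a median of -1.34, against 21.6% lower and 53.4% higher of all genes.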

How the data were processed

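Total RNA was sequenced from 24 libraries used here, in 12 groups of 2. Values are TPM as deposited by the authors in 2 tables; the submitters' processing notes name kallisto, STAR and DESeq2 among their tools and the mm10 build, without saying which made the TPM. The 4 WT columns of the second table, which are in another unit, were not used. TPM does not keep the read depth, so no counting error can be given, and because it is a share, a rise of abundant transcripts lowers all others. For 20 comparisons limma 3.58.1 (R 4.3.3) was run with a mean-variance trend on log2(TPM + 1), two-sided, on all 16 libraries of the first table or the 8 of the second, which share 1 estimate of the spread. Genes at 1 TPM or more in 2 libraries entered, and p-values were adjusted by Benjamini-Hochberg over all of them. Fold changes on this scale understate those of low genes. The procedure was checked on simulated data. Alternatives were a pseudocount of 0.1 TPM, no filter, a filter of 5 TPM, rescaling to genes outside the mitochondrial genome, median-of-ratios scaling, quantile normalization, only the groups compared, a replicate block and leaving out each library; adding Gm10925 to mt-Atp6, the sums with 4 candidate copies and the last Phc1 comparison were chosen after the data had been seen. Members and gene lists were chosen with earlier results of these data known. Named genes are the 13 mitochondrial genes, the alternative forms, the extremes of abundance, up to 5 called genes each way per comparison (3 for interactions and the KO steps) with a mean of 5 TPM or more in 1 group and no overlap, and up to 3 each way per supporting list; Ndufb11, Cox6c, the retrocopies and a few others were named after their values were seen.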

Additional observations from a re-analysis of the deposited data

Results flagged for a closer look

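The Pcgf2 KO difference was compared between stages by an interaction in limma, adjusted by Benjamini-Hochberg over all genes, and the genes below had a difference at a later stage unlike that in ESC. Values are the log2 difference at the later stage minus that in ESC.

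At EB day 3 the mitochondrial genes mt-Nd3 (1.59), mt-Atp6 (1.29), mt-Nd1 (0.67), mt-Nd2 (0.55) and mt-Co3 (0.50) had a higher KO difference than in ESC. With Gm10925 added, that of mt-Atp6 was 0.25 (limma adjusted p = 0.275), and quantile normalization turned that of mt-Co3 to -0.43. Among nuclear genes it was higher for Ndufb11b (2.68), Atp5g1 (0.84) and Ndufa11 (0.62) and lower for Ndufv2 (-0.47), Ndufs1 (-0.34) and Sdha (-0.32), but median-of-ratios scaling turned Ndufs1 to 0.02 and Sdha to 0.04 and left 0 nuclear genes lower.

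At EB day 8 the difference was lower for mt-Nd5 (-1.53), mt-Nd6 (-1.43), mt-Nd4l (-0.87), mt-Co1 (-0.74), mt-Co3 (-0.74), mt-Nd4 (-0.69), mt-Nd2 (-0.57) and mt-Cytb (-0.57). It was higher for Ndufb11b (1.72), Atp5g1 (0.71) and Uqcrc1 (0.40), and lower for Cox7a1 (-0.65), Cox6b2 (-0.59) and Ndufs5 (-0.58).

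In NPC it was higher for Ndufb11b (3.29), Cox7a1 (2.77) and Atp5g1 (0.66). It was lower for Cox6b2 (-3.76), Ndufa4l2 (-1.32), Atp5k (-1.28), mt-Nd4l (-0.60) and mt-Co1 (-0.39). The calls of the latter pair were lost with median-of-ratios scaling, at -0.41 for mt-Nd4l (limma adjusted p = 0.0601) and -0.19 for mt-Co1 (limma adjusted p = 0.417), where 3 other mitochondrial genes were higher and 0 lower.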

How the results depend on the processing

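Counts of called genes kept within 1.5 times of the values given for all 80 counts with a pseudocount of 0.1 TPM and with a filter of 5 TPM. They moved further for 35 of 80 with median-of-ratios scaling, 27 with quantile normalization, 12 with only the groups compared, 8 after rescaling, 8 without a filter and 3 with the replicate block. TPM hides the read depth, each group has 2 libraries, and a library left alone in its group is assumed to vary like the others. Same-numbered libraries did not deviate together (correlations of -0.184 to 0.0954), so the numbers were not read as pairs. The causes of the changes below were not tested.

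With median-of-ratios scaling, Pcgf2 KO against WT in ESC had 3 nuclear genes higher and 10 lower and 1 mitochondrial gene higher, EB day 3 had 40 nuclear genes higher and 0 lower, and NPC had 1 mitochondrial gene higher. WT EB day 3 against ESC had 0 nuclear genes higher and 0 mitochondrial genes higher and 7 lower, and EB day 8 against EB day 3 had 19 nuclear genes higher. WT NPC against EB day 8 had 3 nuclear genes higher and 21 lower and 0 mitochondrial genes higher, and against ESC 0 nuclear genes higher and 0 mitochondrial genes higher and 10 lower. The KO effect against that in ESC had 40 nuclear genes higher and 0 lower and 9 mitochondrial genes higher at EB day 3, 4 nuclear genes lower at EB day 8, and 19 nuclear genes lower and 3 mitochondrial genes higher and 0 lower in NPC. Phc1 KO against Phc1-SAM KO ESC had 6 nuclear genes higher and 43 lower, and Phc1-SAM KO NPC against ESC 11 higher.

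With quantile normalization, KO against WT had 3 nuclear and 2 mitochondrial genes lower in ESC, 39 nuclear genes higher and 0 lower and 4 mitochondrial genes higher at EB day 3, and 1 mitochondrial gene higher and 1 lower in NPC. WT NPC had 2 mitochondrial genes higher and 1 lower against EB day 8, and 5 higher and 3 lower against ESC. The KO effect against that in ESC had 1 nuclear gene lower and 2 mitochondrial genes higher and 1 lower at EB day 3, and 2 mitochondrial genes higher in NPC. Phc1 KO against Phc1-SAM KO had 13 nuclear genes lower in ESC and 1 mitochondrial gene higher in NPC. From ESC to NPC 24 nuclear genes and 1 mitochondrial gene rose in Phc1 KO, and 30 nuclear genes rose and 23 fell in Phc1-SAM KO.

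With only the groups compared, KO against WT had 2 nuclear genes lower in ESC, 5 lower at EB day 3 and 1 mitochondrial gene higher in NPC. WT EB day 3 against ESC had 0 nuclear genes higher, EB day 8 against EB day 3 had 0 mitochondrial genes lower, and NPC against EB day 8 had 0 mitochondrial genes higher. The KO effect against that in ESC had 2 nuclear genes lower at EB day 3, 3 higher at EB day 8 and 2 mitochondrial genes higher in NPC. Phc1 KO against Phc1-SAM KO NPC had 0 nuclear genes lower, and Phc1 KO NPC against ESC had 1 mitochondrial gene higher. After rescaling, KO against WT at EB day 3 had 3 nuclear genes lower, WT EB day 3 against ESC 0 nuclear genes and 1 mitochondrial gene higher, WT EB day 8 against EB day 3 0 mitochondrial genes lower, the KO effect at EB day 3 against that in ESC 23 nuclear genes higher, and Phc1 KO against Phc1-SAM KO ESC 11 lower. Without a filter, KO against WT in NPC had 1 mitochondrial gene higher, WT EB day 3 against ESC 0 higher, WT EB day 8 against EB day 3 0 lower, the KO effect against that in ESC 8 nuclear genes higher at EB day 3 and 1 mitochondrial gene lower in NPC, and Phc1 KO against Phc1-SAM KO NPC 4 nuclear genes lower. With the replicate block, KO against WT in NPC had 1 mitochondrial gene higher, WT EB day 3 against ESC 0 nuclear genes higher, and Phc1 KO against Phc1-SAM KO NPC 2 nuclear genes lower; the block moved no other count by over 1.5 times.

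Some single genes changed sign. With quantile normalization these were Atp5pb in KO against WT ESC (0.04), mt-Co1 (-0.18) and mt-Nd1 (-0.00) at EB day 3, and mt-Co1 (0.00) and mt-Co3 (-0.23) in NPC, and mt-Co1 in EB day 8 against EB day 3 in WT (0.00) and in KO (0.00). They were also mt-Co3 in the KO effect at EB day 3 against that in ESC (-0.43), and for Phc1 KO against Phc1-SAM KO, Atp5g1 (0.05), Atp5g3 (0.01) and mt-Co1 (-0.00) in ESC and mt-Nd1 (0.20) in NPC. In Phc1-SAM KO NPC against ESC they were Cox6a1 (0.06), Cox7a2 (0.01), Ndufa4 (0.11) and mt-Co1 (0.00), and mt-Co1 (0.00) in the test between the Phc1 lines. With median-of-ratios scaling they were Sdha in WT EB day 3 against ESC (-0.06), Sdhb (-0.02), mt-Co3 (-0.20), mt-Cytb (-0.48), mt-Nd4l (-0.14) and mt-Nd5 (-0.38) in WT NPC against ESC, Cox7a2l in KO NPC against ESC (-0.05), Ndufs1 (0.02) and Sdha (0.04) in the KO effect at EB day 3, and Cox6b1 in Phc1 KO against Phc1-SAM KO ESC (-0.03). With Gm10925 added, mt-Atp6 came to 0.01 in WT EB day 3 against ESC, -0.02 in EB day 8 against EB day 3 and 0.00 in NPC against ESC.

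Leaving out 1 library at a time gave these ranges where a count moved by over 1.5 times. For KO against WT they were 0 to 7 nuclear genes lower and 1 to 3 mitochondrial genes higher and 0 to 1 lower in ESC, 4 to 5 nuclear genes lower at EB day 3, 8 to 12 nuclear genes higher and 4 to 12 lower and 5 to 9 mitochondrial genes lower at EB day 8, and 1 to 2 mitochondrial genes higher in NPC. For WT EB day 3 against ESC they were 0 to 1 nuclear genes and 0 mitochondrial genes higher. For WT EB day 8 against EB day 3 they were 17 to 29 nuclear genes higher and 6 to 12 lower, and 2 to 5 mitochondrial genes higher and 0 to 3 lower. For WT NPC they were 9 to 25 nuclear genes higher and 7 to 12 lower and 0 to 2 mitochondrial genes higher and 2 to 4 lower against EB day 8, and 0 to 2 mitochondrial genes higher and 3 to 4 lower against ESC. For the KO effect against that in ESC they were 5 to 21 nuclear genes higher, 2 to 4 lower and 3 to 7 mitochondrial genes higher at EB day 3, 3 to 9 nuclear genes higher and 4 to 8 lower at EB day 8, and 0 to 2 mitochondrial genes higher and 1 to 2 lower in NPC. For Phc1 KO against Phc1-SAM KO they were 11 to 14 nuclear genes lower in ESC and 0 to 1 lower in NPC.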
